A study of Mus musculus with 2 samples.

Results

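The ubiquitin-proteasome system marks proteins with ubiquitin and degrades them, and its genes were described here in hippocampal tissue of a mouse model of amyloid disease. The set holds 99 of 55536 mouse genes. It takes the genes whose symbol matches a pattern for proteasome subunits and their partners (Psma to Psmg), E2 conjugating enzymes (Ube2), E1 activating enzymes (Uba1 to Uba7), polyubiquitin genes (such as Ubb) and C-terminal hydrolases (Uchl1 to Uchl5), and that have at least 1 protein-coding transcript. The pattern matched 110 genes, and 11 of these, pseudogenes and antisense genes, have no protein-coding transcript and were left out. The rule itself uses symbols and transcript classes and no measured value. Total RNA was sequenced from a layer of the hippocampus of adult female 5xFAD/CAST mice aged 8 to 10 months, as 1 group of 2 biological replicates from 300 ng of RNA each. The 5xFAD transgenes carry mutations of familial Alzheimer's disease under the Thy1 promoter, which drives them mainly in neurons, and CAST is a wild-derived inbred background. The labels give the replicates separate tissue records and the same donor record. Whether they are separate animals is therefore not settled, and every SD is the spread of these 2 samples. With no control mice in the data used, levels are described and not set against mice without the transgenes, and no p-value is given.

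In this pathway an E1 enzyme activates ubiquitin with ATP, an E2 enzyme receives it, and an E3 ligase directs it to a substrate. The 26S proteasome, a 20S barrel with a 19S cap at one or both ends, unfolds and cuts proteins that carry ubiquitin chains. Immune signals can replace the constitutive catalytic subunits of the barrel by inducible ones, which gives the immunoproteasome, and in mammals the transcription factor Nfe2l1 raises the 26S subunit genes together when proteasome activity is short. Neurons depend on the system for turnover of synaptic proteins, and ubiquitin is found in the protein deposits of several brain diseases.

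Replicates 1 and 2 held 27682992 and 32169915 expected counts on mouse genes, estimates that share out reads matching several genes. Levels are given in TPM, the length-corrected share of transcripts that the deposited gene table gives, so that genes of different length can be compared. The tissue label was checked against marker lists. All 7 markers of hippocampal excitatory neurons were detected, with summed levels of 1819 TPM in replicate 1 and 2027 TPM in replicate 2, as were all 3 interneuron, 4 astrocyte, 6 microglial, 6 oligodendrocyte and 4 endothelial markers. The libraries were not the same mixture. Choroid plexus markers summed to 449.9 TPM in replicate 1, against 157 TPM in replicate 2, and oligodendrocyte markers to 1837 TPM in replicate 1, against 1492 TPM in replicate 2. In bulk tissue fewer cells of a type and less RNA per cell cannot be told apart.

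Most of the set was present. A gene was called detected at 1 TPM or more in both libraries, and 90 of the 99 members passed (90.9%), against 60.2% of 22015 nuclear protein-coding genes. The members are 0.450% of those genes and held 1.21% ± 0.0229 of their summed TPM (SD, n = 2), with 1.20% in replicate 1 and 1.23% in replicate 2. By expected counts, which weight long genes, they held 0.759%. The 32 genes of 26S subunits took 34.8% of the members' TPM. The level plot by role shows Ubb and Uchl1 above most of the rest and the detected 26S subunits in a narrow band. The assembly chaperones and the inducible subunits other than Psmb10 lie below that band, and Psmb10 lies within it.

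**Figure D1:**
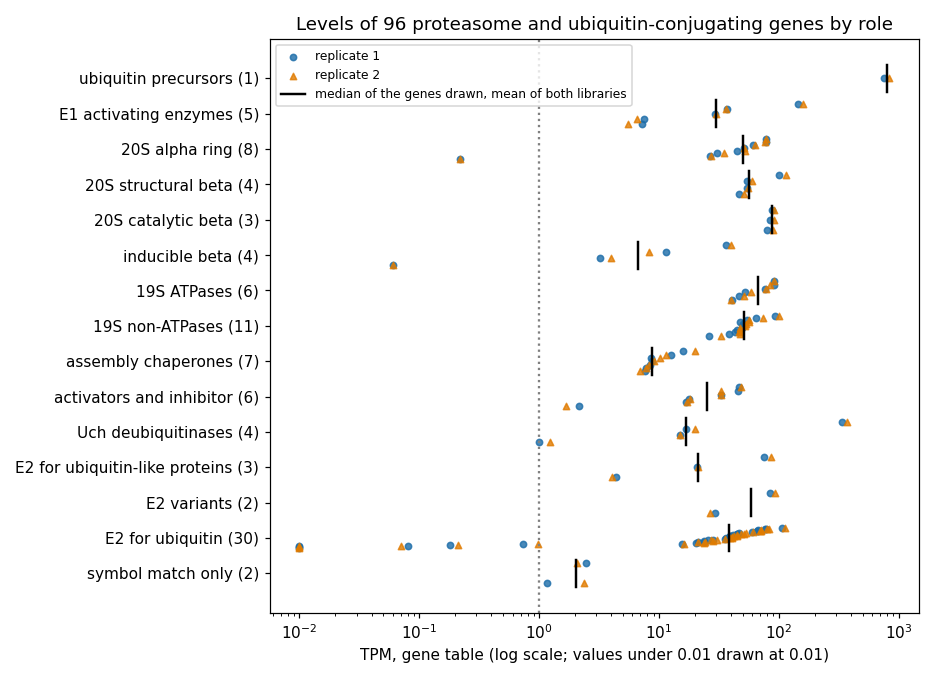
TPM in each library (log axis) for 96 of the members, grouped by role with the number of genes in brackets; circles are replicate 1, triangles replicate 2, the black bar is the median of the genes drawn and the dotted line marks 1 TPM. Ubb lies at 753 and 828 TPM, and 9 members fall short of 1 TPM in at least 1 library.

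Ubb was the highest member of the set in the gene table. It is a polyubiquitin gene, which encodes a head-to-tail chain of ubiquitin units that is cut into single ubiquitins. Ubb, on chromosome 11 (62551171 to 62553213, plus strand, mm10), had 753 TPM in replicate 1 and 828 TPM in replicate 2 and ranked 24th among nuclear protein-coding genes. Rps27a, which fuses 1 ubiquitin to a ribosomal protein and lies outside the symbol pattern, had 241 and 273 TPM, below Ubb in both libraries.

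The coding sequence of Ubb is repetitive. In the GENCODE M21 transcripts, Ubb-201 holds 4 complete units of 228 bases, each different, which are 95.6 to 99.1% identical to each other, and Ubb-202 holds 3. The first unit of Ubb-201, from the start codon, is shown because reads of a repeat can match several places in it; capitals mark the 11 bases at which the 4 units are not all the same.
Ubb unit 1: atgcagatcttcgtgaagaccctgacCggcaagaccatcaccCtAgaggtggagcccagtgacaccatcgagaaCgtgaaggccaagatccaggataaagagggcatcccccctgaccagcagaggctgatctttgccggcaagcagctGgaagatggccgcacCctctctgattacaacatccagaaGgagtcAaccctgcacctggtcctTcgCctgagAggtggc
Both transcripts are annotated as protein-coding. Ubb-201 took 433 TPM in replicate 1 and 477 TPM in replicate 2, and Ubb-202 took 320 and 351 TPM. In the transcript tables deposited in the kallisto layout, a second quantification of the same reads beside the RSEM layout, the whole gene had 964 and 1063 TPM.

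Among the E1 enzymes the main ubiquitin E1 stood far above the others. Uba1, which activates ubiquitin for most E2 enzymes, had 145 TPM in replicate 1 and 159 TPM in replicate 2. Uba2, the catalytic part of the SUMO E1, had 36.7 and 35.9 TPM. Uba3, the catalytic part of the NEDD8 E1, had 29.4 and 30.0 TPM. These came next after Uba1 among the E1 genes described here. Uba6, a second E1 for ubiquitin, had 7.50 and 6.54 TPM, or 4.63% ± 0.739 of the level of Uba1 (SD, n = 2). Uba7, the E1 for the interferon-induced modifier ISG15, had 7.26 and 5.53 TPM. Uba6 and Uba7 overlapped in range and did not differ beyond their spread, while the other neighbours named here did not overlap between libraries. None of the TPM of Uba7 lay on a protein-coding transcript in the RSEM layout, and 3.40% did in the kallisto layout, and its locus overlaps the protein-coding gene Gm20661 on the same strand.

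The subunits of the 26S proteasome were present at even levels. Of the 32 genes, 31 were detected, and only Psma8, the alpha subunit found mainly in testis, was near 0 with 0.220 TPM in both libraries. Over all 32 the median was 53.8 ± 2.77 TPM (SD, n = 2), with 51.9 and 55.8 TPM in the single libraries. The 31 detected genes ran from Psma2 at 26.8 ± 0.0566 TPM to Psmb4 at 107.6 ± 11.0 TPM, a 4.01-fold range. Their 90th percentile was 2.21 times their 10th, against 25.6 times among all detected nuclear protein-coding genes. That contrast is a description, since subunits of 1 complex were chosen by name. Detection sets the lower end of the range of all genes, while among the 26S subunits it removed Psma8 alone. Over all 32 subunit genes the 90th percentile was 2.66 times the 10th.

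Within the 20S barrel the outer rings gate the entry and the inner rings hold the cutting sites. The alpha ring had a median of 49.8 TPM over 8 genes. Its highest members were Psma3 with 78.0 and 77.8 TPM, Psma7 with 77.8 and 76.4 TPM, and Psma6 with 60.2 and 63.4 TPM. Its lowest detected member was Psma2 with 26.8 and 26.9 TPM. In the gene table every gene of that ring stayed below the 3 constitutive catalytic subunits in both libraries. In the kallisto layout Psma3 was above all 3, with 110 TPM in replicate 1 and 99.3 TPM in replicate 2. Psma7, with 81.1 and 79.2 TPM there, was above Psmb5 and Psmb6 in both. In that layout 32.9% of the TPM of Psma3 and 73.1% of that of Psma7 lay on protein-coding transcripts. The shares were 100% for Psmb5, 79.9% for Psmb6 and 99.3% for Psmb7. In the RSEM layout the share of Psma3 was 45.5%. The posterior SD of the count of Psma3, a measure of how uncertain the sharing of reads is, was 41.4 and 39.9. For the processed pseudogene Gm15542 it was 41.46 and 40.25, and whether they share reads was not tested. Among the structural beta subunits Psmb4 had 99.8 and 115 TPM, Psmb3 54.4 and 59.9 TPM, Psmb1 54.2 and 55.2 TPM, and Psmb2 46.6 and 50.7 TPM. Psmb4 was above every other 20S gene in both libraries, over all its transcripts. Of its TPM, 64.1% lay on its protein-coding transcript in the RSEM layout and 43.0% in the kallisto layout. That transcript, Psmb4-201, had 65.9 and 71.6 TPM in the RSEM layout, below Psmb5-201 with 85.9 and 90.3 TPM.

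The 3 constitutive catalytic subunits were at close levels in the gene table. Psmb5, which carries the chymotrypsin-like site, had 87.0 TPM in replicate 1 and 90.3 TPM in replicate 2. Psmb6, with the caspase-like site, had 79.5 and 89.8 TPM. Psmb7, with the trypsin-like site, had 84.0 and 91.7 TPM. Their ranges overlapped and their means lay within 1.05-fold, so that in this table their order was not set beyond the spread of the 2 libraries. In the kallisto layout Psmb7 was above both in each library, with 79.5 and 85.3 TPM, against 66.7 and 70.6 TPM for Psmb5 and 64.8 and 74.8 TPM for Psmb6.

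With the undetected Psma8 counted, the roles of the 19S cap had medians within the range of those of the barrel. Its 6 ATPases, which unfold the substrate, had a median of 66.6 TPM, and its 11 other subunits one of 50.7 TPM, against 49.8 TPM for the alpha ring, 55.9 TPM for the structural beta and 87.1 TPM for the catalytic beta subunits. Over its detected genes alone the alpha ring had a median of 51.5 TPM, above that of the 11 other cap subunits. The highest ATPases were Psmc3 with 90.8 and 91.7 TPM, Psmc1 with 91.5 and 83.8 TPM, and Psmc5 with 76.9 and 78.5 TPM. The lowest were Psmc6 with 40.6 and 39.5 TPM and Psmc2 with 46.8 and 51.6 TPM. Of the other subunits the scaffold Psmd2 was highest with 92.5 and 99.5 TPM. The ubiquitin receptor Psmd4 followed with 64.3 and 73.0 TPM, and Psmd8 with 53.8 and 56.5 TPM. The lowest were the lid subunits Psmd12 with 26.3 and 32.6 TPM and Psmd11 with 38.1 and 47.0 TPM. Psmd14, which removes the ubiquitin chain, lay in the middle with 49.0 and 47.7 TPM.

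**Figure D2:**
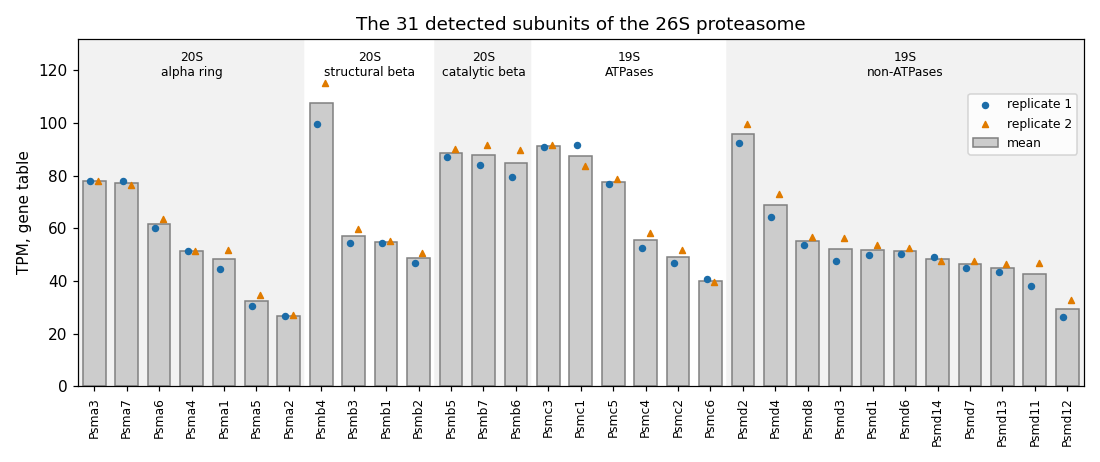
TPM of the 31 detected 26S subunit genes on a linear axis, by role; grey bars are means, circles replicate 1 and triangles replicate 2. Psmb4 is the highest at 107.6 TPM and Psma2 the lowest at 26.8 TPM.

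The helpers that build the proteasome were lower than its parts. The 7 assembly chaperones had a median of 8.81 TPM and ran from 7.28 to 18.01 TPM, below the lowest detected 26S subunit. Psmd5, a chaperone of the 19S base, had 16.0 TPM in replicate 1 and 20.04 TPM in replicate 2. Psmd9, another base chaperone, had 12.5 and 11.5 TPM, and Psmg4, a barrel chaperone, had 8.61 and 10.2 TPM. The barrel chaperones Psmg1 and Psmg3 were lowest, with 7.66 and 6.89 TPM for Psmg1 and 7.85 and 7.74 TPM for Psmg3. Pomp, a further barrel chaperone outside the symbol pattern, had 61.4 and 65.4 TPM, within the band of the subunits themselves.

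The inducible subunits were lower than their constitutive counterparts, each by a different amount. Psmb8, which takes the place of Psmb5, had 11.4 TPM in replicate 1 and 8.27 TPM in replicate 2, or 11.2% ± 2.82 of Psmb5 (SD, n = 2). Psmb9, which takes the place of Psmb6, had 3.21 and 3.94 TPM, or 4.21% ± 0.249 of Psmb6. Psmb10, which takes the place of Psmb7, had 36.4 and 39.6 TPM, or 43.3% ± 0.0664 of Psmb7. Together the 3 inducible genes held 16.5% ± 0.641 of the TPM of the 6 catalytic genes. Psmb11, the subunit of the thymus, had 0.06 TPM in both libraries, from 5 and 6 counts. Psmb8 and Psmb9 rest on few reads as well, with 218 and 177 counts for Psmb8 and 77 and 75 for Psmb9.

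The inducible genes differed in how much of their signal lay on coding transcripts. Of the TPM of Psmb10, 24.3% ± 2.68 lay on its protein-coding transcript (SD, n = 2), and the retained-intron transcript Psmb10-205 took 14.4 TPM in replicate 1 and 18.2 TPM in replicate 2. Psmb8 had 51.4% ± 0.719 on protein-coding transcripts, against 100% for Psmb5, but 75.04% in the kallisto layout. Psmb9 had 76.5% ± 28.9, a share that its few counts leave uncertain. With protein-coding transcripts alone the ratios were 5.75% for Psmb8 to Psmb5, 3.92% for Psmb9 to Psmb6 and 10.6% for Psmb10 to Psmb7, so that the ratio of Psmb10 fell the most but remained the highest. Psmb9 overlaps Tap1, a peptide transporter gene on the opposite strand.

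**Figure D3:**
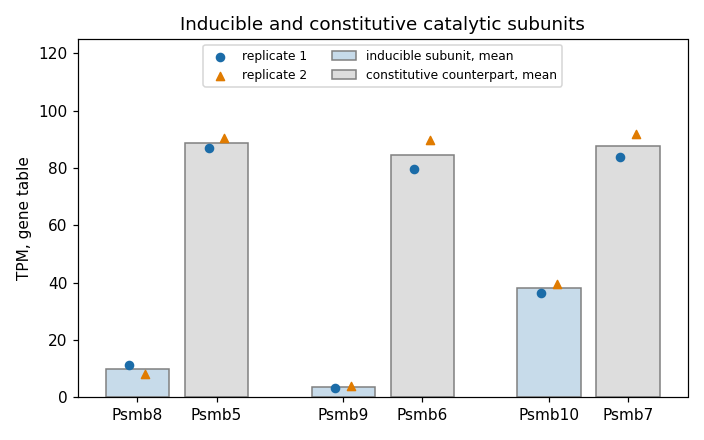
TPM of each inducible catalytic subunit and, to its right, its constitutive counterpart, on a linear axis from 0; bars are means, circles replicate 1 and triangles replicate 2. Psmb10 reaches 36.4 and 39.6 TPM, while Psmb8 and Psmb9 stay at or below 11.4 TPM.

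The regulators that cap the barrel in place of 19S were intermediate. Psme3, which forms the nuclear cap PA28 gamma, had 46.4 TPM in replicate 1 and 48.2 TPM in replicate 2. Psme2, the beta chain of the interferon-inducible cap PA28, had 45.2 and 32.6 TPM. Psme1, its alpha chain, had 32.7 and 33.0 TPM, so that Psme1 was at 72.3% of Psme2 in replicate 1 and 101% in replicate 2. In the kallisto layout the order was the other way in both libraries, with 45.5 and 39.4 TPM for Psme1 and 31.2 and 24.1 TPM for Psme2. The split of Psme2 over its transcripts differed between the libraries. Psme2-203, a retained-intron transcript of 185 bases, took 15.5 TPM in replicate 1 and 8.46 TPM in replicate 2, from 25.9 and 16.1 counts, while the whole gene had 387 and 390 counts. Psme4, the cap PA200, had 17.7 and 18.2 TPM, and the inhibitor Psmf1 had 16.7 and 17.2 TPM. Psme2b, a near copy of Psme2, had 2.15 and 1.68 TPM, and its count is uncertain because the posterior SD of the count reached 17.5% of it.

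The E2 enzymes for ubiquitin formed the widest group. Of 30 genes, 24 were detected, with a median of 41.1 TPM over these 24 and of 38.2 TPM over all 30. Ube2d3, a general E2 that serves many E3 ligases, had 105 TPM in replicate 1 and 112 TPM in replicate 2. Ube2n, which builds lysine-63 chains, had 78.0 and 81.9 TPM, and Ube2e2 had 77.2 and 80.1 TPM, so that their ranges overlapped. Ube2n-ps1, a processed pseudogene that the rule left out, had 50.6 and 56.7 TPM. The posterior SD of its count was 20.6 and 22.4, against 20.5 and 22.3 for Ube2n, and whether they share reads was not tested. The lowest detected was Ube2g1, an E2 of degradation at the endoplasmic reticulum, with 15.5 and 16.2 TPM.

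The 6 other E2 genes for ubiquitin were below 1 TPM in both libraries. Ube2c, which acts with the anaphase-promoting complex in mitosis, had 0.180 TPM in replicate 1 and 0.210 TPM in replicate 2, from 3 and 4 counts. Ube2t, of the Fanconi anemia repair pathway, had 0.740 and 0.980 TPM. Ube2s, one of the 24 detected, extends chains on targets of the same anaphase-promoting complex and had 44.8 and 50.8 TPM. Ube2u had 0.080 and 0.070 TPM. Ube2dnl1, Ube2dnl2 and Ube2d2b had no count in either library. A true level under a floor of 3 counts would not show at this depth, which is 0.108 CPM in replicate 1 and 0.0933 CPM in replicate 2 (counts scaled to library size, counting error alone).

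The E2 variants lack the catalytic cysteine and pair with Ube2n. Ube2v1 had 84.8 TPM in replicate 1 and 93.0 TPM in replicate 2, and Ube2v2 had 29.3 and 26.8 TPM, below Ube2v1 in both. The count of Ube2v1 is less certain than most, since its locus overlaps the protein-coding gene Gm20431 on the same strand, which had 14.1 and 20.5 TPM. Of the E2 enzymes for ubiquitin-like proteins, Ube2m for NEDD8 had 74.5 and 85.9 TPM, and Ube2f, a second E2 for NEDD8, had 20.6 and 21.3 TPM. Ube2l6, the E2 for ISG15, was lowest with 4.35 and 4.07 TPM. Both ISG15 enzymes, Uba7 and Ube2l6, were thus the lowest of their roles or level with the lowest, and Isg15 itself, outside the symbol pattern, had 2.64 TPM in replicate 1 and 0.88 TPM in replicate 2.

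Uchl1 stood apart from its relatives. It encodes a C-terminal hydrolase that is abundant in neurons and is used as a neuronal marker. It had 338 TPM in replicate 1 and 372 TPM in replicate 2 and ranked 107th among nuclear protein-coding genes. Uchl3 had 16.7 and 19.9 TPM, and Uchl5, a deubiquitinase of the 19S cap, had 14.8 and 15.1 TPM. Uchl1 was 19.5 ± 1.08 times Uchl3 and 23.8 ± 1.33 times Uchl5 in TPM of the gene table, over all transcripts (SD, n = 2). Uchl4 had 0.990 and 1.24 TPM, just short of detection, with a posterior SD of up to 6.48% of its count.

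Of the TPM of Uchl1, only 28.2% ± 2.21 was given to its protein-coding transcript in the RSEM layout (SD, n = 2), against 72.1% in the kallisto layout. In the RSEM layout the retained-intron transcript Uchl1-202, of 980 bases, took 228 TPM in replicate 1 and 251 TPM in replicate 2. In the kallisto layout it took 81.2 and 88.1 TPM. The gene level differed little, with 308 and 347 TPM in the kallisto layout.

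Across the set, coding transcripts held most of the signal. Among the 77 members at a mean of 10 TPM or more, the median share of a gene's TPM on protein-coding transcripts was 88.9%, against 87.0% over all 8397 nuclear protein-coding genes at that level. The share was under 50% in 6 of the 77 (7.79%), against 10.4% of the 8397. Those members were Psma3, Psmb10, Psme2, Uchl1, Ube2n and Ube2r2. Retained-intron transcripts took 11.2% of the summed TPM of the 77 members in the RSEM layout and 7.71% in the kallisto layout. Transcripts annotated for nonsense-mediated decay took 1.80% and 2.36%. A retained-intron transcript of Uchl1 alone had 228 and 251 TPM in the RSEM layout, against 81.2 and 88.1 TPM in the kallisto layout. Both layouts gave the highest share to the same transcript in 57 of the 77 members. This count was not made for other genes, so whether it is usual is not known. Total RNA includes unspliced RNA, and its part in the retained-intron share was not tested.

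**Figure D4:**
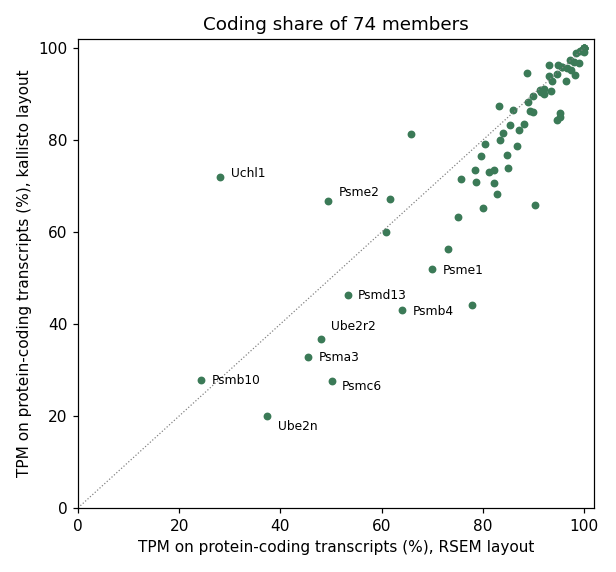
Share of each gene's TPM on protein-coding transcripts (%), RSEM layout on the x axis and kallisto layout on the y axis, for 74 of the members at 10 TPM or more; each point is a gene, as a mean of 2 libraries, and the dotted line marks equal shares. Uchl1 lies far above the line (28.2% and 72.1%), and Psmb10 is low in both layouts (24.3% and 27.9%).

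The deposited quantifications agreed for most members and differed for few. After centring, 6 of the 77 members were over 1.5-fold higher in the kallisto layout than in the gene table (7.79%), against 1.71% of the 8397 nuclear protein-coding genes. None of the 77 was over 1.5-fold lower, against 0.584% of the 8397. They included Ube2v2 at 2.04-fold, Ube2v1 at 1.81-fold, Ube2n at 1.79-fold, Ube2s at 1.58-fold and Uchl5 at 1.57-fold. Ube2n had 134 and 138 TPM in the kallisto layout, and Ube2v1 had 153 and 151 TPM. In Ube2v1, Ube2v2 and Ube2s the kallisto layout gave reads to short coding transcripts that had few or none in the RSEM layout. Ube2v1-204, of 433 bases, had 278 and 288 counts in the kallisto layout and 0 in the other. Ube2s-205, of 338 bases, had 107 and 114 counts in the kallisto layout, against 11.4 and 41.4 in the other. In Ube2n the largest gain was on Ube2n-206, a noncoding transcript of 512 bases, with 39.2 and 44.0 TPM in the kallisto layout, against 0.98 and 1.56 TPM in the RSEM layout. The posterior SD of the count, the deposited measure of how uncertain the sharing of reads is, was over 1% of the count in 4 of the 77 members (5.19%), against 4.67% of the 8397, namely in Psma3, Psme2, Ube2v1 and Ube2v2.

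No member with 100 counts or more passed 1.5-fold between the replicates. On counts scaled by edgeR's TMM, the log2 ratio of replicate 1 over replicate 2 had a median of -0.08 over the 92 members with a mean count of at least 10, against -0.02 over 14904 nuclear protein-coding genes. At a mean count of at least 100, 0 of 85 members were past 1.5-fold, against 0.776% of 12243 nuclear protein-coding genes. Of the 92 members, 23 were higher in replicate 1 (25.0%), against 43.5% of the 14904. The balance moved with the scaling: by spike-ins it was 15.2% of members and 30.5% of all genes, and by library size 29.4% and 50.9%. Of the 31 26S subunits with 10 counts or more, 28 were lower in replicate 1. Their log2 ratios ran from -0.27 to 0.09, with -0.11 as the median. None of them passed 1.5-fold, and the median absolute log2 ratio was 0.11 over these subunits and 0.10 over the 14904 nuclear protein-coding genes. The excitatory neuron markers had a median log2 ratio of -0.11 as well, and their part in the ratios of the subunits was not tested.

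The members highest in replicate 1 included several interferon-linked genes. Among them were also Ube2cbp at a log2 ratio of 0.26, and Ube2d1 and Psmg1 at 0.16 each. Psmb8 had a log2 ratio of 0.49, with a counting interval of 0.20 to 0.79 (exact binomial, 95%), from 218 counts in replicate 1 and 177 in replicate 2. Uba7 had 0.40, with an interval of 0.12 to 0.69. The intervals cover counting error alone, and neither gene passed 1.5-fold. For Psmb9 the ratio was 0.22, with an interval of -0.25 to 0.71, for Psme2 0.18 with -0.03 to 0.39, and for Ube2l6 0.15 with -0.22 to 0.53, so that these were not set apart from 0 by counting. Psme1 and Psmb10 went the other way, at -0.12 and -0.06, so the interferon-linked members did not move as one. In the interferon response list outside the set the median log2 ratio was 0.12. Microglial markers summed to 652 TPM in replicate 1 and 623 TPM in replicate 2, and 5 of 6 were higher in replicate 1. All 6 oligodendrocyte markers were higher in replicate 1, by a median of 0.25 on the log2 scale. Larger shifts the same way were seen in choroid plexus markers, of which 6 of 6 were higher in replicate 1 with a median of 1.19, and in red blood cell markers, of which 5 of 5 were higher with a median of 0.52 and sums of 289 TPM in replicate 1 and 202 TPM in replicate 2. All 4 astrocyte markers were higher in replicate 1 too, with a median of 0.11. The part of these cells in the ratio of Psmb8 was not tested. At the other end, Psmd12 had -0.27 with an interval of -0.40 to -0.15, and Ube2g2, an E2 of degradation at the endoplasmic reticulum, had -0.25 with -0.38 to -0.13.

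**Figure D5:**
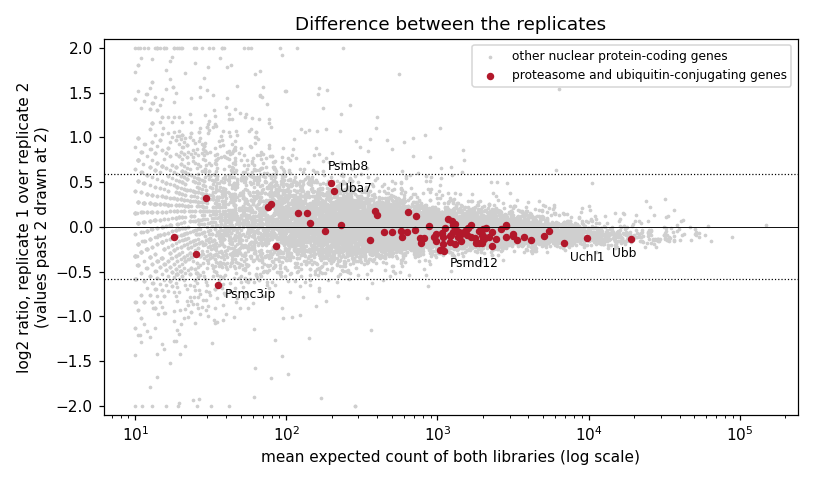
Log2 ratio of replicate 1 over replicate 2 against the mean expected count (log axis) for members (red) and other nuclear protein-coding genes (grey) with a mean count of at least 10; dotted lines mark 1.5-fold. Psmb8 is the highest member at 0.49, and Psmc3ip, with 25 and 46 counts, the lowest at -0.65.

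Members that match the pattern by symbol alone were low. Psmc3ip, a partner of meiotic recombination proteins that takes its name from a subunit it binds, had 1.17 TPM in replicate 1 and 2.36 TPM in replicate 2. Ube2cbp had 2.44 and 2.08 TPM.

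The rest of the pathway was taken from lists of E3 ligases, deubiquitinases, shuttles, transcription factors, interferon response genes and ubiquitin-like genes. Of 55 genes found in the annotation, 54 were detected, with a median of 44.2 TPM, against 53.8 TPM for the 26S subunits. Among the highest were Rps27a, the class I light chain B2m with 242 and 227 TPM, and the autophagy receptor Sqstm1 with 194 and 209 TPM. The lowest were Isg15 and Ifit1, an interferon-induced gene with 1.98 and 1.61 TPM. Nfe2l1, the transcription factor of the proteasome genes, had 101 TPM in replicate 1 and 114 TPM in replicate 2. Nfe2l2, its relative in the oxidative stress response, had 13.2 and 12.8 TPM, so that Nfe2l1 was the higher in both libraries. The interferon response list had a median of 7.30 TPM, and its genes other than B2m and Ifi27 stayed at or below 16.6 TPM.

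Nfe2l1 and Nfe2l2 bind the antioxidant response element, whose core was searched as TGACNNNGC on both strands in the 250 bases before the start site of RefSeq promoters (GRCm38.p6, the sequence of mm10). Promoters were found for 81 of the 99 members. The core was present in 4 of 27 promoters of 26S subunit genes (14.8%), in 11 of 98 of all members (11.2%) and in 10.2% of 32851 promoters of all genes. The 4 were Psmb5, Psmb6, Psmc6 and Psmd12. Those of the catalytic subunits Psmb5 and Psmb6 are shown, as the members of 1 role that hold the match. Psmb7, the third of that role, had no promoter to search. Capitals mark the match, and the last base lies next to the start site. Of the Psmb5 bases, 27 lie in a stretch that GENCODE annotates as untranslated or coding.
Psmb5 (chr14:54617996-54618245, minus strand): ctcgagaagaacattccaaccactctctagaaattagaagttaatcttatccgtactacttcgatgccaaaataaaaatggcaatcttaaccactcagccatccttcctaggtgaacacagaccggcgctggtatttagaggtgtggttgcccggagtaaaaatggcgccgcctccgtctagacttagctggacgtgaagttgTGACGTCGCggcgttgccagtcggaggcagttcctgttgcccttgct
Psmb6 (chr11:70525107-70525356, plus strand): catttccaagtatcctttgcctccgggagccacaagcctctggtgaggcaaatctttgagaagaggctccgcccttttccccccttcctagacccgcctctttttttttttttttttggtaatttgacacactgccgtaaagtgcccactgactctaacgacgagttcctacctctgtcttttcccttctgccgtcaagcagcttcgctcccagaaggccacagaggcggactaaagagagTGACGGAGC
The match begins 47 bases before the start in Psmb5 and 9 bases before it in Psmb6. A match describes letters and not a bound site.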

How the data were processed

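The 2 libraries of total RNA form 1 group. Per the file headers, the authors deposited, for genes and transcripts, tables with the columns of RSEM (expected count, TPM, posterior SD). For transcripts they also deposited tables with the columns of kallisto (estimated count, TPM). Both use mm10 and GENCODE M21. The programs were not given in the sources. No CAST sequence is recorded for the reference. The deposited TPM also sum over spike-ins and unnamed rows, which stayed out of library sizes here (0.481% and 0.454% of counts).

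Members and lists were chosen with earlier results of these data known. Expected counts were rounded, TMM factors came from edgeR 4.0.16 under R 4.3.3, and the log2 ratio used a prior count of 2. With 1 group there was no test: a difference was called at 1.5-fold, at a mean count of 100 between replicates and a mean TPM of 10 between quantifications. Kallisto TPM was summed to genes. Tables used Python 3.11.15, numpy 2.4.6 and pandas 2.3.3, figures matplotlib 3.10.9. DESeq2 1.42.0 size factors were an alternative. On simulated counts for 13097 genes the 1.5-fold call between replicates found 98% of genes changed 2-fold (log2 of 1), 100% of those changed by a log2 of 2, and 0.147% of 12897 unchanged ones. The common biological coefficient of variation was 7.11%.

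Named with values in each library are all ubiquitin precursors, E1 enzymes, catalytic and inducible subunits, activators and Uchl genes, the 3 highest and 2 lowest of other roles, members past 1.5-fold, and, of 55 pathway genes matched of 56 listed, the 4 highest, 2 lowest, Nfe2l1 and Nfe2l2. Other genes were named for their role after their values were seen. Of the members, 20 overlap another gene on the same strand and 39 on the opposite strand, and how strand was used in counting is not given in the sources used here. Overlaps were not counted for all genes, so whether these numbers are usual is not known. A few of these genes are left out of the text and of the plots by role, replicate ratio and coding share; counts and medians include them.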

Additional observations from a re-analysis of the deposited data

How the results depend on the processing

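Under every setting run, the number of detected members and the number past 1.5-fold between quantifications stayed within 1.5 times of their main values. With 90 of 99 members detected, no rise in detection could have passed 1.5 times. The number past 1.5-fold between quantifications was 5 without centring, against 6. The median log2 ratio between replicates stayed within the spread between replicates. That spread was 0.122, which is larger than the median itself. The members' ratios shifted from TMM by a median of -0.058 by spike-ins, 0.025 by library size and -0.001 by DESeq2 size factors. Each shift is smaller than the spread, so this rule could not show a move by scaling. The median ran from -0.14 by spike-ins to -0.05 by library size. Rescaled over nuclear protein-coding genes, the 26S median was 120 TPM. The members' share of TPM was 1.502% in the kallisto layout and 0.759% by counts. With protein-coding transcripts alone Psmb8 was 5.75% of Psmb5, Psmb9 3.92% of Psmb6 and Psmb10 10.6% of Psmb7. In the kallisto layout Psmb9 was 5.96% of Psmb6 and Psmb10 44.2% of Psmb7, and by posterior mean TPM 5.03% and 44.7%. Members past 1.5-fold between replicates numbered 1 at a mean count of 10 (Psmc3ip) and 2 with no count filter (also Psma8). The median coding share was 85.9% in the kallisto layout and 89.8% at 1 TPM. Without 1 replicate, detection ranged from 90 to 91 members, the 26S median from 51.9 to 55.8 TPM, the share of TPM from 1.20 to 1.23%, the ratios from 9.16 to 13.2% (Psmb8), 4.04 to 4.39% (Psmb9) and 43.2 to 43.3% (Psmb10), and the coding share from 89.4 to 89.7%. Medians of TPM by role stayed within the spread in 63 of 90 recomputations and moved in 27, 15 of them under the rescaling. Medians of log2 ratios by role, judged by the same spread of 0.122, stayed in 103 of 104. The cause of each move was not tested. No paired analysis was possible because the samples form 1 group. Leaving out a replicate was not possible for ratios between replicates. Genes under 100 counts vary mainly by counting error at this depth.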
